A study of Saccharomyces cerevisiae with 14 samples.

Results

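Transcripts of the proteasome genes were followed in 2 engineered strains of Saccharomyces cerevisiae that differ in whether they make artemisinic acid, the precursor of an antimalarial drug. The genes were taken by ORF name: 14 subunits of the core particle, 10 of the base, 9 of the lid, the assembly factors UMP1 and RPN14, and the transcription factor gene RPN4, 36 in all. A row was found for 35 of these among the 6040 ORFs of the table, and each of the 35 had a value on every slide. SEM1 (YDR363W-A), a small lid subunit, had no row, and no value is given for it. The genes lie on 13 chromosomes.

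The proteasome degrades proteins that carry a ubiquitin chain. Its barrel-shaped core particle is built of rings of alpha and beta subunits, and the proteolytic sites lie on beta subunits inside. A regulatory particle caps the barrel. The base of this cap holds the RPT ATPases that unfold the substrate and feed it into the core, and the lid holds RPN11, which removes the ubiquitin chain. Rpn4 activates the transcription of most proteasome genes in yeast and is itself degraded by the proteasome, which closes a feedback loop.

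Both strains derive from EPY300, a MATα haploid of the BY4742 line with his3Δ1 and leu2Δ0, in which lys2Δ0 and ura3Δ0 were repaired. Both carry galactose-driven tHMGR, upc2-1 and ERG20 and a methionine-repressible ERG9, which together raise farnesyl diphosphate. EPY330 holds the plasmid pESC-Leu2d::ADS/AMO/CPR and makes artemisinic acid. EPY338 holds pESC-Leu2d::ADS/AMO-KO/CPR, in which a conserved cysteine of the P450 enzyme AMO was changed to glycine, and it makes the hydrocarbon amorphadiene. The plasmids were grown without selection in rich galactose medium (YPG) and can be lost, so a change in every cell and a change in some of the cells cannot be told apart. RNA of 5 transformants per strain was mixed in equal amounts at each of 24, 48 and 72 h in galactose, and cDNA of EPY338 (Alexa647) and EPY330 (Alexa555) was hybridized together on 4 slides at 24 h (A to D) and 5 each at 48 and 72 h (A to E).

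All values below are log2(EPY330/EPY338), so that 0 is an equal level, 1 is a level 2-fold higher in the producer EPY330, and a negative value is a lower level in the producer. Every slide at 1 time point was hybridized with cDNA from 1 pair of RNA pools. The SD between slides is therefore technical, and the tests measure 1 pair of pools per time point against slide error, not the spread between clones. No slide had the dyes swapped, so a dye effect that is specific to a gene cannot be told apart from the strain difference. The median of all ORFs on a slide lay between -0.02 and 0.01, and 5466 to 5940 ORFs had a value on a slide. At 48 h, slides C, D and E correlated with each other across ORFs at Pearson's r of 0.82 to 0.86, whereas slide A correlated with them at 0.54 to 0.62 and slide B at 0.36 to 0.58. Results at 48 h are therefore also given without slides A and B, a choice made after the data were seen.

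Most proteasome genes had a mean above 0 in the producer at 24 and 48 h, and most had a mean below 0 at 72 h. The 14 core genes had medians of 0.59, 0.89 and 0.02 at 24, 48 and 72 h. For the 10 base genes it was 0.42, 0.34 and -0.06, and for the 8 lid genes 0.30, 0.48 and -0.20. The median of all ORFs stayed between -0.02 and -0.01. A mean above 0 was found for 30 of the 35 genes at 24 h, 32 at 48 h and 12 at 72 h, compared with 2903 of 5861 ORFs, 2782 of 5721 and 2892 of 5945.

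**Figure D1:**
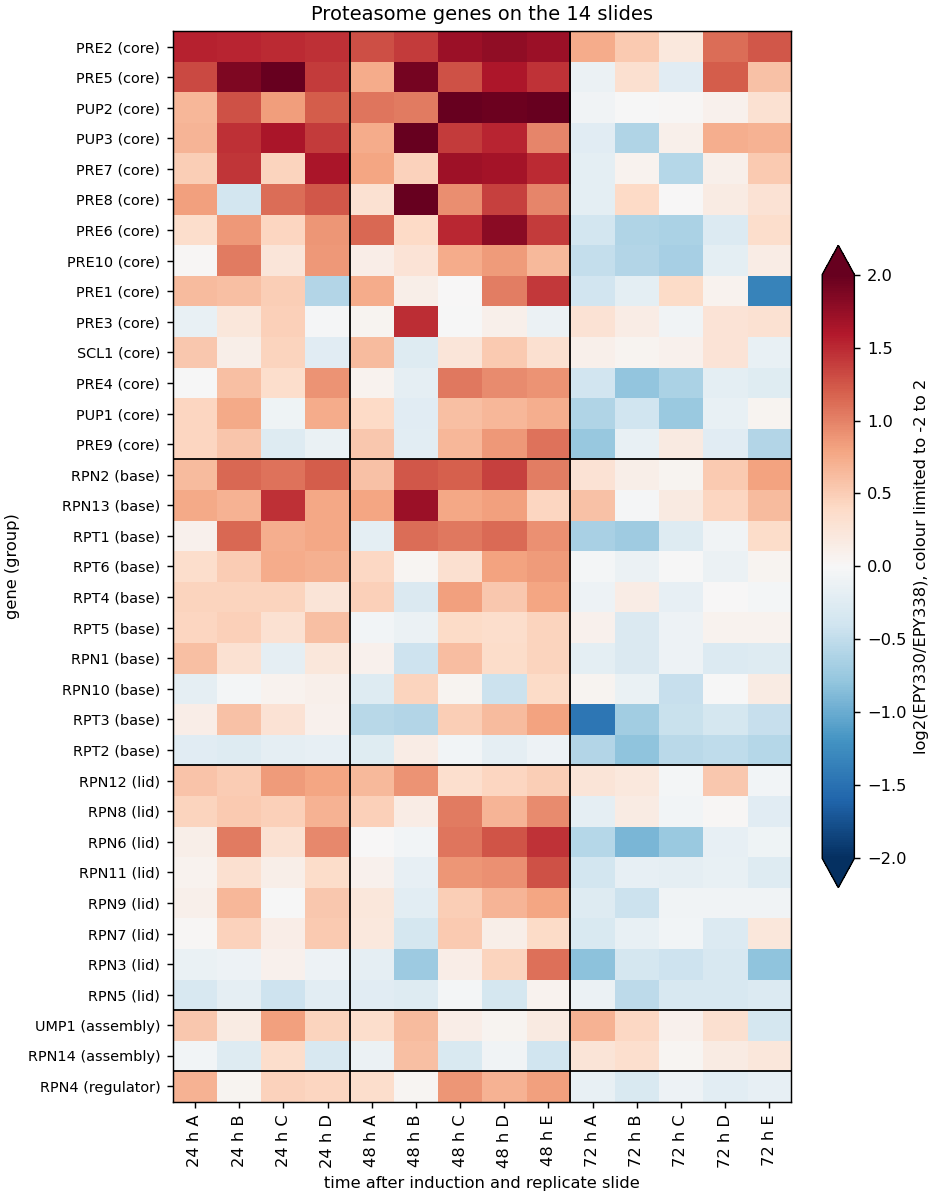
The log2(EPY330/EPY338) of each of the 35 proteasome genes (rows, grouped and ordered by their mean over the time points) on each of the 14 slides (columns). Red is higher in EPY330 and blue lower; most rows are red at 24 and 48 h, and 12 genes had a mean above 0 at 72 h.

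Calls at a single time point were made by one-class SAM at a median FDR of at most 0.2%. At 24 h, 8 of the 35 genes were called higher (11.4% of all ORFs tested were) and 0 lower (5.32%). The count of 0 lower also stood in limma at an adjusted p under 0.05, which called 20 higher, where 20.2% of all ORFs were lower, and 1 of the 35 was lower at an unadjusted p under 0.05 (RPN5). At 48 h, SAM called 10 higher (12.6% of all ORFs) and 0 lower (10.2%), and limma called 23 higher and 0 lower, where 25.3% of all ORFs were lower, and 0 of the 35 were lower at an unadjusted p under 0.05. At 72 h, SAM called 1 higher (12.6%) and 3 lower (8.46%), and limma 1 higher and 4 lower. The limma counts stand against 21.7%, 25.5% and 16.5% of all ORFs called higher at the 3 time points, and 17.3% called lower at 72 h. Without slides A and B, SAM called 16 genes higher at 48 h, where 739 of 5257 ORFs were, and without slide B alone 22, where 968 of 5594 were. Leaving out any single slide at 72 h reduced the 4 calls to 0 or 1. Over all ORFs, the calls in either direction then fell from 1253 of 5945 to between 357 and 901.

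In the core particle, SAM called 5 of 14 genes higher at 24 h, 7 at 48 h and 1 at 72 h, and none of the 14 lower. The shares of all ORFs called higher were 11.4%, 12.6% and 12.6%, and lower 5.32%, 10.2% and 8.46%. A mean above 2-fold was reached by 3 core genes at 24 h, by 7 at 48 h and by 0 at 72 h, compared with 298 of 5861 ORFs, 329 of 5721 and 111 of 5945. Those of 48 h were PUP2 (1.74), PRE2 (1.58), PRE5 (1.40), PUP3 (1.35), PRE6 (1.25), PRE7 (1.22) and PRE8 (1.11). They are 4 alpha subunits, PRE8, PRE6, PUP2 and PRE5, and 3 beta subunits, PUP3, PRE2 and PRE7. PUP2 and PRE7 had 24 h means just under 2-fold, at log2 values of 0.9997 and 0.9987. At 24 h the call of PRE7, a beta subunit, was lost without slide B (mean 0.86) or D (0.79). Without slides A and B, SAM called 10 of 14 higher at 48 h, where 739 of 5257 ORFs were. They were PRE9, PRE10 and PRE4 in addition to the 7 genes above 2-fold at 48 h.

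PRE2 (YPR103W) encodes the beta subunit with the chymotrypsin-like activity and had the highest mean over the time points of the 14 core genes, 1.28. On the 24 h slides A to D it gave 1.54, 1.52, 1.50 and 1.47. On the 48 h slides A to E it gave 1.30, 1.39, 1.71, 1.77 and 1.72. On the 72 h slides it gave 0.74, 0.52, 0.21, 1.12 and 1.24. Every slide was above 0, and all 72 h slides lay below all 24 h and 48 h slides. The means were 1.51 ± 0.03 (SD, n = 4), 1.58 ± 0.22 (n = 5) and 0.76 ± 0.42 (n = 5). PRE2 was the only proteasome gene that SAM called higher at all 3 time points. Its call at 72 h was lost without slide A (mean 0.77), D (0.68) or E (0.65).

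PUP2 (YGR253C), an alpha subunit, had the largest fall from 48 to 72 h of the 35 genes and was chosen for this after its values were seen. It gave 0.67, 1.27, 0.84 and 1.21 on the 24 h slides, 1.07, 1.04, 2.35, 1.96 and 2.26 on the 48 h slides, and -0.08, -0.01, 0.02, 0.08 and 0.30 on the 72 h slides. The 72 h slides lay close to 0 and below every earlier slide. Slides A and B at 48 h fell within the range of the 24 h slides, and C, D and E were above it. The mean was 1.0 ± 0.29 at 24 h (n = 4), 1.74 ± 0.64 at 48 h and 0.06 ± 0.14 at 72 h (n = 5 each), and 2.19 ± 0.21 at 48 h without slides A and B. PRE5 (YMR314W), another alpha subunit and likewise chosen after its values were seen, had its highest mean at 24 h, 1.74 ± 0.48 (n = 4), followed by 1.40 ± 0.44 and 0.35 ± 0.58 (n = 5 each).

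PRE9 (YGR135W), the one alpha subunit that yeast can live without, had the lowest mean over the time points among the core genes, 0.14. It gave 0.43, 0.56, -0.25 and -0.13 on the 24 h slides. At 48 h it gave 0.54, -0.21, 0.66, 0.86 and 1.08, and at 72 h -0.75, -0.15, 0.17, -0.22 and -0.59. Slides of each time point fell on both sides of 0, and SAM called PRE9 at no time point with all slides. The other catalytic subunits had lower values than PRE2: PRE3, with the caspase-like activity, had means of 0.13 ± 0.28 (n = 4), 0.30 ± 0.66 and 0.19 ± 0.16 (n = 5 each). PUP1, with the trypsin-like activity, had 0.46 ± 0.39 (n = 4), 0.43 ± 0.39 and -0.36 ± 0.32 (n = 5 each). Neither was called by SAM with all slides, and the difference from PRE2 was not tested. The remaining core genes that SAM did not call with all slides, SCL1, PRE10, PRE1 and PRE4, had means of 0.22 to 0.55 at 24 h, 0.29 to 0.67 at 48 h and -0.45 to 0.07 at 72 h.

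In the base, 2 of 10 genes were called higher by SAM at 24 h (RPN2 and RPN13) and 3 at 48 h (the same genes and RPT1). At 72 h, 2 were called lower (RPT2 and RPT3). Across all ORFs, 11.4% and 12.6% were called higher at 24 and 48 h and 8.46% lower at 72 h. The order of core above base at 24 h depended on the processing. With a trend along ORF name order removed, SAM called 7 of 10 base and 5 of 14 core genes higher (967 of 5861 ORFs). The medians were then 0.48 in the base and 0.44 in the core. At 48 h the core stayed above the base in that setting, at medians of 0.76 and 0.47. The call of RPN13 at 48 h was lost without slide C (mean 0.94) or D (0.93) and without slides A and B together. The call of RPT1 at 48 h, with a mean of 0.80 ± 0.56 (n = 5), was lost without slide B, C, D or E, at means of 0.72 to 0.78, and kept without A and B.

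RPN2 (YIL075C), a large scaffold subunit, had the highest mean over the time points in the base, 0.82. It gave 0.63, 1.15, 1.09 and 1.20 at 24 h, 0.59, 1.24, 1.20, 1.37 and 1.03 at 48 h, and 0.29, 0.12, 0.05, 0.52 and 0.81 at 72 h. All 14 slides were above 0, and the 72 h range overlapped the earlier ones through slide E. The means were 1.02 ± 0.26 (n = 4), 1.09 ± 0.30 and 0.36 ± 0.31 (n = 5 each). RPN13 (YLR421C), a ubiquitin receptor, had 0.92 ± 0.36 (n = 4), 0.91 ± 0.48 and 0.36 ± 0.27 (n = 5 each). RPN10, the other ubiquitin receptor of the base, had means of -0.01, 0.04 and -0.07 and was called by no test with all slides.

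RPT2 (YDL007W), an ATPase with a role in opening the gate of the core, had the lowest mean over the time points in the base, -0.30. It gave -0.22, -0.26, -0.19 and -0.17 at 24 h, -0.24, 0.16, -0.05, -0.17 and -0.09 at 48 h, and -0.58, -0.80, -0.54, -0.51 and -0.57 at 72 h. Of the 14 slides, slide B at 48 h alone was above 0, and every 72 h slide was below every earlier slide. The mean at 72 h was -0.60 ± 0.12 (n = 5). SAM lost this call without slide A, B, C or D, at means of -0.62 to -0.55, and limma gave an adjusted p of 0.0003 at 72 h. RPT3 (YDR394W), also an ATPase, gave 0.13, 0.59, 0.29 and 0.08 at 24 h, -0.56, -0.58, 0.49, 0.64 and 0.81 at 48 h, and -1.45, -0.69, -0.44, -0.34 and -0.47 at 72 h. At 48 h, slides A and B of RPT3 were below 0 and C, D and E above it, so that the mean was 0.16 ± 0.67 with all 5 slides and 0.64 ± 0.16 with C, D and E. At 72 h the mean was -0.68 ± 0.45 (n = 5), or -0.49 without slide A, and the SAM call was lost without any 1 slide. The other ATPases, RPT1, RPT4, RPT5 and RPT6, had means of 0.40 to 0.68 at 24 h and -0.26 to -0.03 at 72 h. RPN1, the second scaffold, had 0.24 ± 0.32 (n = 4), 0.22 ± 0.40 and -0.22 ± 0.08 (n = 5 each).

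In the lid, SAM called 1 of 8 genes higher at 24 h (RPN12), 0 at 48 h and 1 lower at 72 h (RPN3). Among all ORFs, 11.4% and 12.6% were higher at 24 and 48 h and 8.46% lower at 72 h. The lid counts at 24 and 72 h were near these shares. Without slides A and B, SAM called 3 lid genes higher at 48 h, RPN6, RPN8 and RPN11, where 739 of 5257 ORFs were higher. limma on all slides called 5 of 8 higher at 48 h (25.5% of all ORFs), against 12 of 14 in the core and 5 of 10 in the base. At 24 h it called 3 of 8 higher in the lid, 9 of 14 in the core and 6 of 10 in the base (21.7% of all ORFs). RPN12 (YFR052W) had the highest mean over the time points in the lid, 0.48. It gave 0.58, 0.51, 0.86 and 0.78 at 24 h, 0.64, 0.90, 0.34, 0.43 and 0.49 at 48 h, and 0.26, 0.21, -0.04, 0.54 and -0.05 at 72 h. All slides but C and E at 72 h were above 0, and the 72 h range overlapped the earlier ones through slide D. The 24 h mean of RPN12, 0.68 ± 0.16 (n = 4), lost the call without slide A (0.72), C (0.62) or D (0.65). RPN5 (YDL147W) had the lowest mean, -0.25. It gave -0.33, -0.18, -0.41 and -0.21 at 24 h, -0.22, -0.26, -0.04, -0.35 and 0.08 at 48 h, and -0.12, -0.53, -0.32, -0.32 and -0.28 at 72 h. Of the 14 slides of RPN5, slide E at 48 h alone was above 0. SAM called RPN5 at no time point with all slides, and limma called it lower at 72 h (adjusted p = 0.026).

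RPN3 (YER021W), a lid subunit, gave -0.13, -0.10, 0.09 and -0.11 at 24 h. At 48 h it gave -0.17, -0.72, 0.14, 0.44 and 1.10, and at 72 h -0.82, -0.35, -0.41, -0.32 and -0.80. All 72 h slides were below 0 and below all 24 h slides, and 48 h slide B lay within their range. The mean at 72 h was -0.54 ± 0.25 (n = 5), and the SAM call was lost without any 1 slide, at means of -0.59 to -0.47. RPN11, the deubiquitinating enzyme of the lid, had 0.22 ± 0.15 (n = 4), 0.60 ± 0.61 and -0.22 ± 0.09 (n = 5 each), and at 48 h it gave 0.09 and -0.17 on slides A and B against 0.89, 0.92 and 1.28 on C, D and E. RPN6, RPN7, RPN8 and RPN9 had means of 0.28 to 0.61 at 24 h, 0.18 to 0.75 at 48 h and -0.50 to -0.05 at 72 h.

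**Figure D2:**
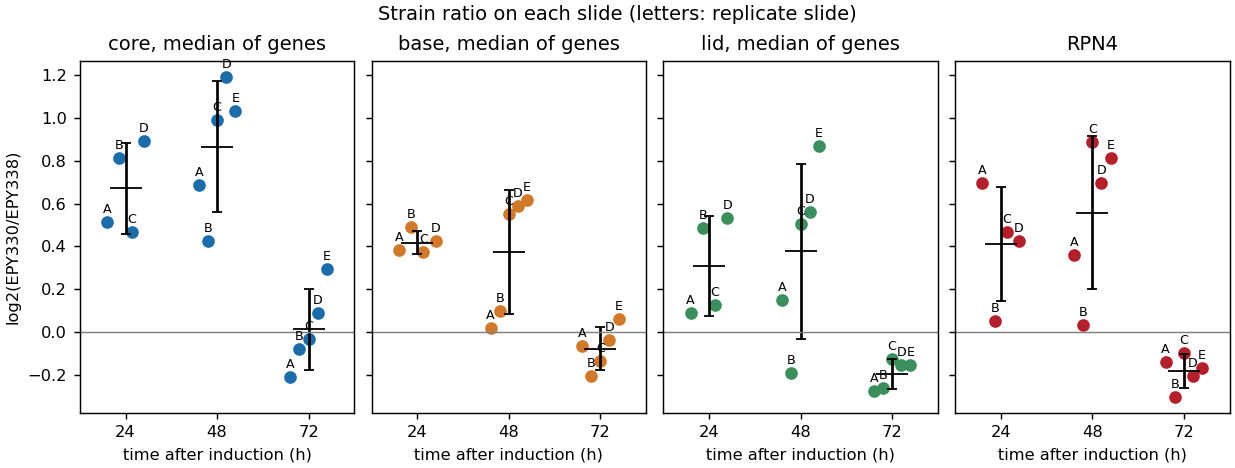
Each point is 1 slide (letter) at 24, 48 or 72 h: the median log2(EPY330/EPY338) over the 14 core, 10 base or 8 lid genes, or the value of RPN4; the bar is the mean of the slides ± SD. The core median lay between 0.47 and 0.89 at 24 h, 0.43 and 1.19 at 48 h, and -0.21 and 0.30 at 72 h, and slides A and B are the lowest of the 48 h slides in each panel.

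The separation of the time points was next read slide by slide. The core median was 0.47 to 0.89 on the 24 h slides, 0.43 to 1.19 on the 48 h slides and -0.21 to 0.30 on the 72 h slides. The 72 h range lay below the other ranges, and the 24 h range lay within that of 48 h. The base median was 0.37 to 0.49 at 24 h and -0.20 to 0.06 at 72 h. At 48 h it was 0.02 and 0.10 on slides A and B and 0.55 to 0.62 on C, D and E, so that slide A fell within the 72 h range. The lid median was 0.09 to 0.53 at 24 h, -0.19 to 0.87 at 48 h and -0.28 to -0.13 at 72 h, and 48 h slide B fell within the 72 h range.

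RPN4 (YDL020C), the activator gene, gave 0.70, 0.05, 0.47 and 0.43 on the 24 h slides A to D. It gave 0.36, 0.03, 0.89, 0.70 and 0.81 on the 48 h slides A to E and -0.14, -0.30, -0.10, -0.20 and -0.17 on the 72 h slides. Every slide was above 0 at 24 and 48 h and below 0 at 72 h. The means were 0.41 ± 0.27 (n = 4), 0.56 ± 0.36 and -0.18 ± 0.08 (n = 5 each), which is under 2-fold at each time point. SAM did not call RPN4 with all slides at any time point, and called it higher at 48 h without slides A and B, at a mean of 0.80 ± 0.10. limma called it higher at 24 h (adjusted p = 0.027) and 48 h (adjusted p = 0.0014).

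UMP1 (YBR173C), a chaperone that matures the core and is degraded by it, gave 0.53, 0.17, 0.82 and 0.45 at 24 h. At 48 h it gave 0.34, 0.64, 0.13, 0.06 and 0.18, and at 72 h 0.69, 0.42, 0.09, 0.31 and -0.35. All but 72 h slide E were above 0, and the 3 time points overlapped. The means were 0.49 ± 0.27 (n = 4), 0.27 ± 0.23 and 0.23 ± 0.39 (n = 5 each). SAM did not call UMP1 with all slides, and limma called it higher at 24 h (adjusted p = 0.017). RPN14 (YGL004C), a chaperone of the base, had -0.07 ± 0.30 (n = 4), -0.06 ± 0.39 and 0.20 ± 0.11 (n = 5 each), and was the 1 gene of the 35 whose mean was highest at 72 h.

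The strain ratios were next compared between time points by limma on all 14 slides, with p-values adjusted over all ORFs. From 48 to 72 h the ratio fell for 23 of the 35 genes and rose for 0, where 16.3% of all ORFs fell and 13.9% rose. The 23 genes were 12 of 14 in the core, 5 of 10 in the base, 5 of 8 in the lid, and RPN4. PUP2 fell by 1.67 (SE 0.25, adjusted p = 0.0007) and PRE6, an alpha subunit, by 1.55 (SE 0.25, adjusted p = 0.0010). SCL1 and PRE3 were the core genes that were not called. RPN4 fell by 0.74 (SE 0.18, adjusted p = 0.0076), and this call was kept without each slide in turn. RPN14 had a difference of 0.26 that was not called. limma called it with the trend along ORF name order removed (0.44, SE 0.14, adjusted p = 0.021) and with 48 h slides A and B left out (0.46, SE 0.17, adjusted p = 0.032). Without those slides 27 of the 35 genes fell and RPN14 rose, where 1404 of 5243 ORFs fell and 1281 rose. At an unadjusted p under 0.05 on all slides, 27 of the 35 fell and 0 rose, where 2420 of 5652 ORFs passed in either direction.

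**Figure D3:**
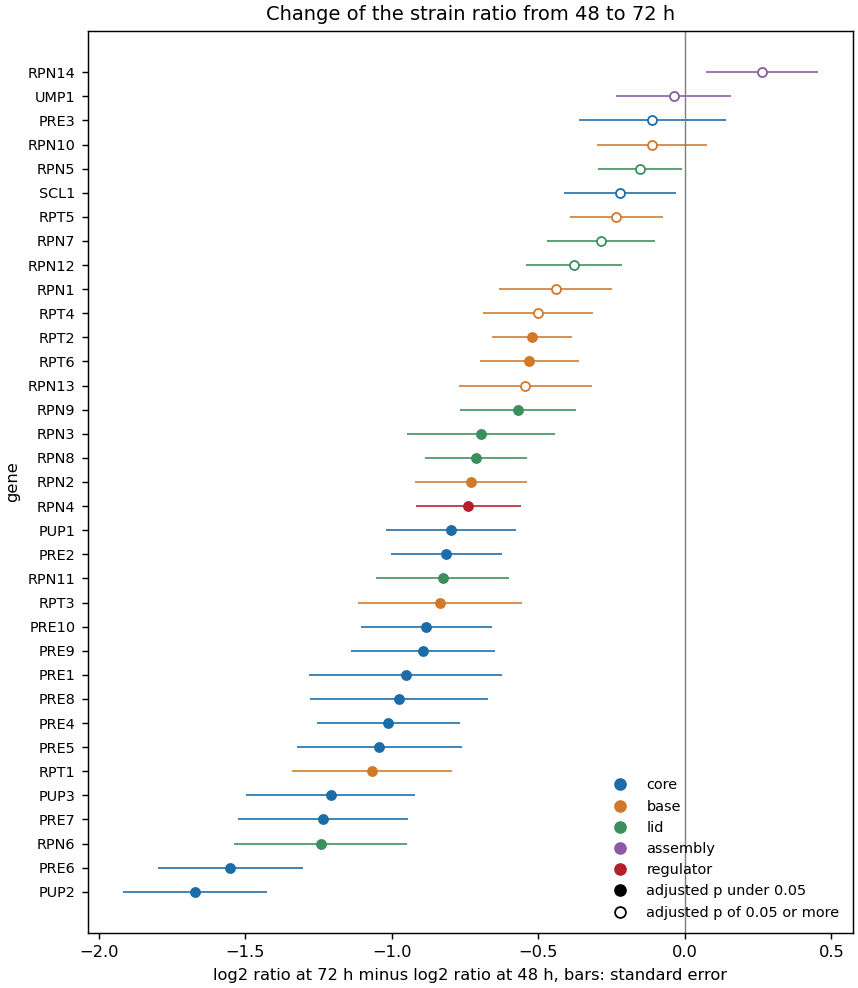
Difference in log2(EPY330/EPY338) between 72 h and 48 h for each of the 35 genes, with its standard error, from limma on 14 slides; filled points had an adjusted p under 0.05 and colours give the group. All filled points lie below 0, from -0.52 (RPT2) to -1.67 (PUP2).

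From 24 to 72 h the ratio fell for 16 of the 35 genes and rose for 0, where 9.16% of all ORFs fell and 5.17% rose. The 16 genes were 9 of 14 core genes, 4 of 10 in the base (RPT1, RPT3, RPT6 and RPN2), 2 of 8 in the lid (RPN6 and RPN8), and RPN4. PRE5 fell by 1.39 (SE 0.30, adjusted p = 0.010) and RPN4 by 0.59 (SE 0.19, adjusted p = 0.045). PRE5 was the 1 gene called with every single slide left out. The count depended on single slides: it was 1 without 24 h slide B or D or 72 h slide A, B or C, where 144 to 222 of all ORFs fell, and 9 without 24 h slide C, where 438 did. The call of RPN4 was lost without any of 10 of the 14 slides, with differences of -0.71 to -0.50. Without 48 h slides A and B, 24 genes fell, where 915 of 5243 ORFs did. At an unadjusted p under 0.05, 23 of the 35 fell and 0 rose, where 1842 of 5652 ORFs passed in either direction. The 2 contrasts share the 72 h slides. Every 72 h slide was below every 24 h slide in 16 of the 35 genes (10.5% of all ORFs) and below every 48 h slide in 8 (6.43%).

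Between 24 and 48 h, limma called 0 of the 35 genes (0.619% of all ORFs rose and 0.372% fell). An unadjusted p under 0.05 was found for 2, PRE6 and PUP2, where 402 of 5652 ORFs passed in either direction. The differences ranged from -0.34 (PRE5) to 0.74 (PUP2). Without slides A and B, 3 genes were called higher at 48 h: PUP2 by 1.19 (SE 0.18, adjusted p = 0.0008), PRE6 by 0.93 (SE 0.23, adjusted p = 0.031) and RPN11 by 0.81 (SE 0.16, adjusted p = 0.0076). In that setting 150 of 5243 ORFs rose, against 35 of 5652 with all slides. The mean was highest at 48 h in 23 of the 35 genes, where it was in 31.1% of all ORFs, and lowest at 72 h in 33, where it was in 42.1%.

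**Figure D4:**
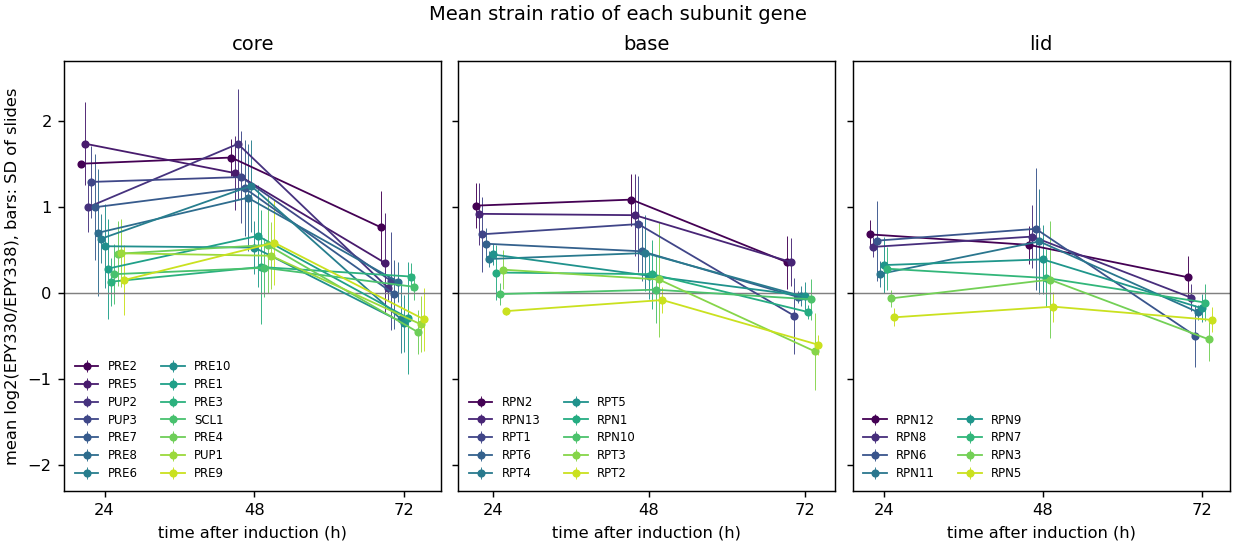
Mean log2(EPY330/EPY338) of each core, base and lid gene at 24, 48 and 72 h, with the SD of the 4, 5 and 5 slides. The core genes spread from 0.13 to 1.74 at 24 h, 0.29 to 1.74 at 48 h and -0.45 to 0.76 at 72 h.

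When each time point was given 1 value per gene, 4 of the 35 genes had a mean over the time points above 0 by limma (11.5% of all ORFs) and 0 below it (9.85%). The count above 0 was thus near the share of all ORFs. The 4 were PRE2 (1.28, SE 0.19, adjusted p = 0.024), PRE5 (1.16, SE 0.27, adjusted p = 0.037), RPN2 (0.82, SE 0.18, adjusted p = 0.033) and RPN13 (0.73, SE 0.16, adjusted p = 0.033). Each was above 0 at all 3 time points. At an unadjusted p under 0.05, 10 of the 35 genes were above 0 and 0 below, where 2273 of 5652 ORFs passed in either direction. The count was 1 without 72 h slide E, where 185 of 5596 ORFs were above 0. It was 7 without 72 h slide C, where 823 of 5641 were. Without 48 h slides A and B none of the 35 was called and 9 had an unadjusted p under 0.05, and 1 of 5243 ORFs in all was called.

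Other genes of the pathway were read from 5 lists of 39 genes, of which 38 had a row and HUL5 had none. In the 4 lists other than the regulators of RPN4, SAM called 5 of 32 genes higher and 0 lower at 24 h, 7 of 31 higher and 0 lower at 48 h, and 3 of 31 higher and 4 lower at 72 h. Of all ORFs, 11.4%, 12.6% and 12.6% were higher at the 3 time points and 5.32%, 10.2% and 8.46% lower. Of the assembly chaperones, 0 of 7 were called at 24 and 48 h. At 72 h IRC25, a chaperone of the core, was called higher (0.69), and ADD66, also of the core, and NAS6, of the base, lower (-0.55 and -0.84). The other calls at 72 h were BLM10, an alternative cap of the core, higher at 0.85, CUZ1 higher, and STS1 (-0.65) and the ubiquitin-activating enzyme UBA1 (-0.48) lower. Without 1 slide, BLM10 was always kept, NAS6 was lost without slide A, IRC25 without 3 of the 5 slides, ADD66 and STS1 without 4 and UBA1 without any.

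CUZ1, a proteasome-associated zinc finger protein, was higher by SAM at all 3 time points. It gave 1.56, 1.71, 1.40 and 1.09 at 24 h, 1.71, 2.48, 2.15, 2.52 and 1.97 at 48 h, and 0.21, 0.67, 0.23, 1.02 and 1.40 at 72 h. All 14 slides were above 0, and the 72 h range reached into that of 24 h. The means were 1.44 ± 0.27 (n = 4), 2.17 ± 0.34 and 0.71 ± 0.51 (n = 5 each), and the 72 h call was lost without slide B, D or E, at means down to 0.53. TMC1, a related zinc finger protein, had 1.15 ± 0.29 (n = 4), 0.97 ± 0.49 and 0.03 ± 0.36 (n = 5 each). DSK2, which shuttles ubiquitinated proteins to the proteasome, had 1.14 ± 0.43 (n = 4), 0.97 ± 0.61 and -0.12 ± 0.56 (n = 5 each). The polyubiquitin gene UBI4 had 1.13 ± 0.25 (n = 4), 1.09 ± 0.43 and 0.05 ± 0.54 (n = 5 each). SAM called these 3 genes at 24 and 48 h and not at 72 h. The 48 h calls of TMC1 and DSK2 were lost without slide C, D or E.

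Of the 6 genes listed as regulators of RPN4, 1 was called higher at 24 h and 1 at 48 h, MSN2, and 1 lower at 48 h, MSN4. Msn2 and Msn4 are related activators of the general stress response. MSN2 gave 0.57, 1.12, 0.91 and 0.81 at 24 h, 0.80, 1.27, 1.14, 1.17 and 1.23 at 48 h, and 0.16, 0.34, 0.31, 0.37 and 0.58 at 72 h. Every slide of MSN2 was above 0, with means of 0.85 ± 0.23 (n = 4), 1.12 ± 0.18 and 0.35 ± 0.15 (n = 5 each). MSN4 gave -0.43, -1.88, -2.31 and -0.57 on 48 h slides A, B, D and E and had no value on C. Its mean there was -1.30 ± 0.94 (n = 4), and the call was lost without slide B, C or D. Without slides A and B together, MSN4 had values on D and E only and was not tested. YAP1, the oxidative stress activator, had 0.64 ± 0.30 (n = 4), 0.50 ± 0.16 and 0.33 ± 0.12 (n = 5 each). SAM did not call YAP1, and limma called its mean over the time points above 0 (0.49, SE 0.13, adjusted p = 0.045). The drug resistance activators PDR1 (-0.09, 0.12 and -0.11) and PDR3 (-0.20, -0.33 and -0.06) and the heat shock factor HSF1 (-0.19, 0.03 and -0.29) were not called by SAM. At single time points, limma called 2 of the 6 regulators lower at 48 h, PDR3 and MSN4 (25.3% of all ORFs). It called 2 higher at each time point, MSN2 and YAP1 (21.7%, 25.5% and 16.5% of all ORFs). The ratio fell by limma from 48 to 72 h for 10 of 30 tested genes of the 4 lists and rose for 3, and from 24 to 72 h it fell for 6 and rose for 0. Of all ORFs, 16.3% fell and 13.9% rose in the first contrast, and 9.16% fell and 5.17% rose in the second.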

How the data were processed

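The deposited table holds 1 log2 ratio of EPY338 (Alexa647) over EPY330 (Alexa555) per ORF and slide, made by the authors from double-spotted cDNA slides with GenePix Pro 6.1, after removal of aberrant and weak spots, and lowess-normalized in BRB-ArrayTools 3.5.0. It holds no intensities, so signal over background was not assessed, and precision is limited by how many slides there are. Signs were reversed to give log2(EPY330/EPY338).

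One-class SAM, the test named in the study's methods, was run per time point on ORFs with a value on at least 3 slides, over all sign flips (16 at 24 h, 32 at 48 and 72 h). Gaps were imputed from the 10 nearest genes, and the median FDR was held to 0.2%. None of the proteasome values was imputed. Differences between time points and the mean over the 3 time points were tested two-sided in limma 3.58.1 (R 4.3.3) with Benjamini-Hochberg adjustment over 5652 ORFs at 0.05. SAM was run in Python 3.11.15 with numpy 2.4.6 and tables were handled in pandas 2.3.3, with figures from matplotlib 3.10.9. Both tests were first tried on simulated data.

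Given slide by slide were RPN4, UMP1, the genes with the highest and lowest mean over the time points in the core, base and lid, and the genes called against the direction of most; from the pathway lists, the regulators of RPN4 and genes past 2-fold were named. The genes, lists and tests were chosen with earlier results of these data known. Gene names came from a RefSeq table matched by ORF name. Promoter motifs were not analysed here.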

Additional observations from a re-analysis of the deposited data

Results flagged for a closer look

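In 6 of the 114 groups of slides examined, for the 35 genes and for the core, base and lid medians at each time point, 1 slide stood apart from the others by Dixon's test at the 95% level, which chance gives in about 1 in 20 groups. PRE3 had 1.48 on 48 h slide B against -0.12 to 0.11 on the others. PRE1 had -0.58 on 24 h slide D against 0.49 to 0.63 on the others. RPT1 had -0.19 on 48 h slide A against 0.91 to 1.13 on the others. RPT2 had -0.80 on 72 h slide B against -0.58 to -0.51 on the others. RPT4 had 0.25 on 24 h slide D against 0.44 to 0.45 on the others. RPN13 had 1.46 on 24 h slide C against 0.70 to 0.77 on the others.

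The difference in the strain ratio between time points was tested in limma, and the genes with an adjusted p under 0.05 are given here with their difference on the log2 scale. For 72 h minus 24 h these were PRE6 (-0.94), PUP2 (-0.94), PRE5 (-1.39), PRE10 (-0.90), PUP1 (-0.83), PUP3 (-1.15), PRE2 (-0.74), PRE7 (-1.01), PRE4 (-0.91), RPT1 (-0.95), RPT3 (-0.95), RPT6 (-0.62), RPN2 (-0.66), RPN6 (-1.11), RPN8 (-0.59) and RPN4 (-0.59). For 72 h minus 48 h they were PRE8 (-0.98), PRE9 (-0.89), PRE6 (-1.55), PUP2 (-1.67), PRE5 (-1.04), PRE10 (-0.88), PUP1 (-0.80), PUP3 (-1.21), PRE1 (-0.95), PRE2 (-0.81), PRE7 (-1.24), PRE4 (-1.01), RPT1 (-1.07), RPT2 (-0.52), RPT3 (-0.84), RPT6 (-0.53), RPN2 (-0.73), RPN3 (-0.70), RPN6 (-1.24), RPN8 (-0.71), RPN9 (-0.57), RPN11 (-0.83) and RPN4 (-0.74). Both contrasts use the same 72 h slides.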

How the results depend on the processing

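No called value changed sign under an alternative; the core median at 72 h, 0.02 and not tested, was -0.09 with a trend between ORFs that neighbour in name order removed. The SAM count at 24 h, 8, was 13 at an FDR of 1%, 16 with that trend removed, and 20 in limma at an adjusted p under 0.05. All were higher. ORFs called higher went from 671 of 5861 to 943, 967 and, in limma, 1224 of 5652. The count at 48 h, 10, was 16 at an FDR of 1%, 17 with the trend removed and 23 in limma at 0.05. It was 3 without imputation and 16 without slides A and B, which was chosen after the data were seen. ORFs called higher at 48 h went from 722 of 5721 to 989, 980 and, in limma, 1442 of 5652. They were 129 of 5721 without imputation and 739 of 5257 without slides A and B. The count at 72 h, 4, was 2 with the trend removed, with slides centred on their median, on ORFs with a value on every slide and in limma at an adjusted p of at most 0.002, and 0 without imputation, where limma at 0.05 called 5. ORFs called in either direction went from 1253 of 5945 to 910, 1225, 754 of 5327 and 462 of 5652, in that order. Without imputation they were 366 of 5945, and in limma at 0.05 they were 1911 of 5652. At an adjusted p of at most 0.002, the 16 genes for 72 h minus 24 h became 0 (23 had an unadjusted p under 0.05) and the 23 for 72 h minus 48 h became 2. At that limit 22 of 5652 ORFs fell in the first contrast and 95 in the second. Without 48 h slides A and B, the 0 genes for 48 h minus 24 h became 3, where 150 of 5243 ORFs rose. The 4 genes of the mean over the time points became 1 with the median of the slides, where 179 of 5652 ORFs were higher. They became 0 without 48 h slides A and B (9 with an unadjusted p under 0.05), where 1 of 5243 ORFs was called. The base median was 0.48 at 24 h (core 0.44) with the trend removed and 0.65 at 48 h without slides A and B.

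With each slide left out in turn, the counts ranged from 6 to 8 at 24 h, 8 to 22 at 48 h, 0 to 1 at 72 h, 1 to 22 for 72 h minus 24 h, 0 to 0 for 48 h minus 24 h, 17 to 27 for 72 h minus 48 h, and 1 to 7 for the mean over the time points. Over all ORFs, calls in either direction ranged from 442 to 957, 446 to 1816 and 357 to 901 at 24, 48 and 72 h. For the contrasts they ranged from 174 to 1280, 36 to 97 and 1079 to 2380, and for the mean from 255 to 1546. The core median ranged from 0.48 to 0.69 at 24 h, 0.81 to 0.98 at 48 h and -0.02 to 0.07 at 72 h. The base median ranged from 0.41 to 0.44, 0.27 to 0.49 and -0.10 to -0.03, and the lid median from 0.22 to 0.39, 0.36 to 0.51 and -0.22 to -0.17. Of the 22 calls of single genes at a time point, 14 were kept with slides centred, with the trend removed and with each slide left out. The cause of the other changes was not tested.

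Slides of the same letter deviated together for some letters only. The correlation between time points was over 0.1 in 6 of 13 pairs and ranged from -0.53 to 0.64. The 6 were the pairs of letter A (0.21 to 0.64) and letter D (0.14 to 0.38). For B, C and E it was -0.53 to 0.07. The letters were taken as names of slides, and the main tests did not pair them. With the letter as a replicate block, limma called 17 genes lower for 72 h minus 24 h, where 668 of 5652 ORFs were. It called 22 lower for 72 h minus 48 h, where 920 were. For 48 h minus 24 h it called 0, where 26 ORFs rose and 20 fell. The comparison of promoter motifs was not run.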
